A study of Macrostomum lignano with 16 samples.

Results

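Lasting company was compared with its absence in whole adult Macrostomum lignano, a minute marine flatworm. The comparison set 8 RNA-seq libraries of worms that lived with others for 64 days against 8 libraries of worms raised alone, and so used 16 of the 16 libraries of the series. The libraries with company were 4 of octet worms, kept in groups of 8, and 4 of paired worms, kept 2 together. The libraries of worms raised alone were 4 of joined worms, which lived singly until 2 of them were put together for the last 24 h, and 4 of isolated worms, which were single throughout. Joined worms therefore had company for 1 day, and the contrast separates lasting company from none or almost none. All worms belonged to strain DV1, were 66 to 69 days old, were fed diatoms and were kept under the same culture conditions. Libraries were chosen by these labels alone and not by any measured value.

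Macrostomum lignano is a simultaneous hermaphrodite, so that each adult carries testes and ovaries at the same time and invests in both. Mating in this species is reciprocal, with exchange of sperm and seminal fluid. Theory of sex allocation holds that, as more mates compete to fertilise the same eggs, more of the reproductive budget should go to the testes. The number of partners is the usual way to shift that balance in this species. Testis size is known to be larger in worms kept in groups. The study asked which transcripts respond to this social setting.

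Each library held the RNA of a pool of whole worms. Fewer cells of a type and less RNA per cell cannot be told apart in such data. Because pools are the replicates, the p-values refer to variation from pool to pool, and single worms were not measured. The transcripts carry identifiers of an assembly that the files do not pair with gene names, so they are given by identifier only and no function is named. Identifiers with the same number before the dot are called variants here, although the files do not say what the suffix means. Reads that match several of them were divided by estimation, so the value of each such variant is less certain than the sum over its number.

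The libraries held 7302416 to 10112451 estimated reads. This depth did not differ between the sides beyond the spread of libraries (exact permutation test over 12870 arrangements, two-sided p = 0.459). At least 1 read was found for 62759 ± 1513 transcripts in worms with company and for 64541 ± 1418 in worms raised alone (SD, n = 8 each). The exact permutation p of that difference was 0.0311, and 0.0932 after adjustment over 3 library measures. By group the mean was 61690 in octet, 63827 in paired, 65410 in joined and 63673 in isolated libraries. The paired mean thus did not lie below the isolated mean. On the first principal component of log2 CPM (reads scaled to a common library size) the octet libraries scored -119 to -45.7, paired libraries -59.4 to 25.3, joined libraries 38.3 to 74.5 and isolated libraries 7.66 to 57.7. Octet replicate 3 lay within the paired range, and paired replicate 4 lay within the octet range. Isolated replicate 3 stood apart on the second component, at -87.2 against -8.74 to -2.40 in the other isolated libraries.

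Of 40265 tested transcripts, 12456 (30.9%) differed between worms with company and worms raised alone at an adjusted p under 0.05 (limma-voom, Benjamini-Hochberg over all tested transcripts). They were 6715 transcripts higher with company (16.7% of those tested) and 5741 lower (14.3%). Most changes were small: the median log2 fold change was 0.62 among the higher and -0.64 among the lower ones, and 5433 calls (43.6%) were changed by less than 1.5-fold. More than 2-fold changes were seen for 724 of the higher and 840 of the lower transcripts. The balance between the directions depended on scaling, with 53.9% of calls higher under the trimmed-mean factors used here and 44.5% under upper-quartile factors. The median log2 fold change of all tested transcripts was -0.03 and -0.08 under those scalings.

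The balance turned round with the size of the change. Between 2-fold and 4-fold the lower transcripts were the more numerous, 813 against 592 higher. Above 4-fold there were 132 higher and 27 lower transcripts, and above 8-fold 86 higher and 8 lower. The 27 lower transcripts above 4-fold were mostly scarce, with a median mean level of 0.15 log2 CPM, against 3.75 for the 86 higher ones above 8-fold and 2.14 for all tested transcripts. The count of 27 became 17 with a stricter filter, 14 by limma-trend with a pseudocount of 2 and 70 with no filter, while the count of 86 stayed between 61 and 90 in all settings tried.

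**Figure D1:**
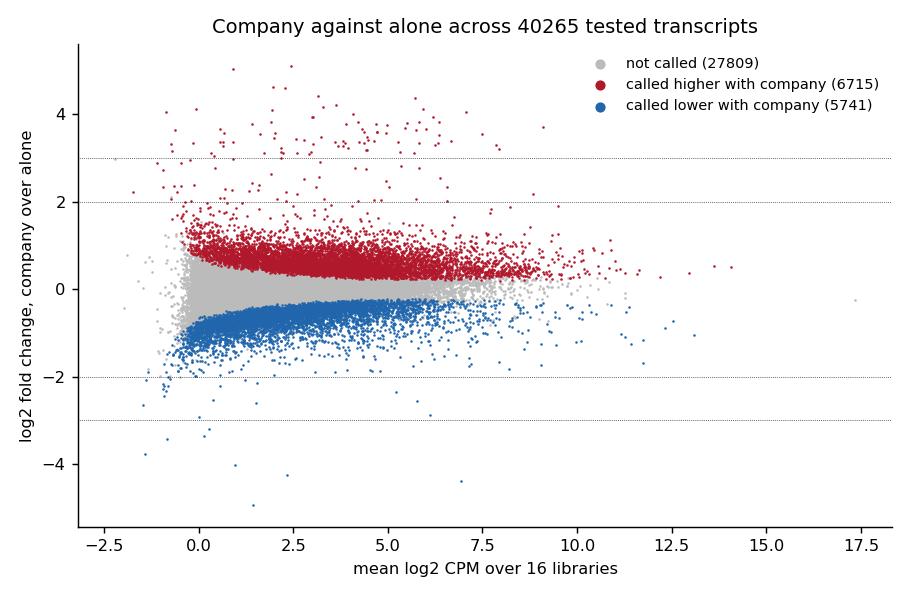
Log2 fold change of company over alone (vertical axis) against mean log2 CPM over 16 libraries (horizontal axis), 1 point per tested transcript, with red points called higher with company (6715), blue points called lower (5741) and grey points not called. Dotted lines mark 4-fold and 8-fold changes, and the sparse cloud above 8-fold (86 transcripts) has no counterpart of that size below (8 transcripts).

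All 8 libraries with company lay beyond all 8 libraries raised alone in 1359 transcripts (3.38% of those tested). These were 967 transcripts higher with company and 392 lower. Each of the 1359 was also called by the test, and together they made up 10.9% of the calls. Their median log2 fold change was 0.90 in the higher and -0.78 in the lower ones. The remaining calls rested on a difference of means between libraries that overlapped. Dropping paired replicate 2 brought the number without overlap to 2257, and dropping paired replicate 4 together with isolated replicate 3 brought it to 2347. Fewer libraries separate more easily by construction, and leaving out each library in turn gave 1363 to 2257.

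Abundant transcripts were called more often. Among the 13422 most abundant tested transcripts 6012 (44.8%) were called, against 4011 of 13421 (29.9%) in the middle group and 2433 of 13422 (18.1%) among the least abundant. The direction differed as well: the most abundant group held 3935 higher and 2077 lower calls, the middle group 1890 higher and 2121 lower, and the least abundant group 890 higher and 1543 lower. The median size of the called changes was 0.52 log2 units in the most abundant group and 0.87 in the least abundant. Only called changes enter these medians, and the interval widths of the abundance groups were not compared. Whether call rates and sizes reflect response or precision of measurement was not tested. Of the reads in tested transcripts, those called higher held 33.3% to 48.4% with company (median 41.5%) and 24.7% to 32.2% in worms raised alone (median 27.6%). Transcripts called lower held 8.60% to 17.9% with company (median 11.3%) and 17.2% to 24.0% in worms raised alone (median 19.6%). These shares come from the libraries that made the calls and describe the calls only.

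The largest rises among well-measured transcripts (mean log2 CPM of at least 3, no overlap) exceeded 15-fold. RNA815_29683.1 had 20.3 CPM in the lowest, 42.7 at the median and 81.7 in the highest of the 8 libraries with company, against 0.713, 1.92 and 3.68 CPM in worms raised alone. Its log2 fold change was 4.42 ± 0.31 (standard error, SE; limma adjusted p = 8.7e-10). The lowest library with company was the paired replicate 2, and it still lay 5.50 times above the highest library raised alone. RNA815_9549.3 had 98.7, 248 and 496 CPM (lowest, median, highest) with company, against 7.27, 11.5 and 16.7 CPM in worms raised alone. Its log2 fold change of 4.37 (standard error 0.19) had the smallest adjusted p of all tested transcripts, 1.63e-12 by limma. Octet libraries lay above every paired library in this transcript, whereas joined and isolated libraries were interleaved.

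RNA815_19868.1 had 20.9, 56.7 and 107 CPM with company, against 1.43, 2.58 and 6.35 CPM in worms raised alone, a log2 fold change of 4.22 ± 0.29 (SE). RNA815_38273 had 18.1, 42.7 and 92.3 CPM with company, against 1.19, 1.96 and 4.95 CPM in worms raised alone, a log2 fold change of 4.17 ± 0.26 (SE). In both, paired replicate 2 was the lowest library with company and a joined library was the highest of those raised alone. RNA815_9549.1, which shares its number with RNA815_9549.3, had 118, 251 and 491 CPM with company, against 7.74, 16.3 and 21.6 CPM in worms raised alone, a log2 fold change of 4.12. RNA815_12718 had 224, 612 and 890 CPM with company, against 19.9, 37.5 and 52.0 CPM in worms raised alone, a log2 fold change of 4.05 ± 0.20 (SE). It was the most abundant in reads of these 8 transcripts.

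RNA815_8281.2 had 25.4, 68.4 and 142 CPM with company, against 2.55, 4.09 and 6.85 CPM in worms raised alone, a log2 fold change of 4.02. RNA815_80.4 had 104, 329 and 526 CPM with company, against 10.8, 17.8 and 33.0 CPM in worms raised alone, a log2 fold change of 3.94. RNA815_2216.1 changed a little less, with 125, 323 and 573 CPM with company, against 13.4, 24.3 and 30.6 CPM in worms raised alone. Its log2 fold change of 3.83 had the second smallest limma adjusted p of the higher transcripts, 4.07e-12. All of these transcripts were also called, in the same direction, in each of the 4 single comparisons of a group with company and a group raised alone. The same held for 544 of the 12456 calls among 40265 tested transcripts. These comparisons are parts of the contrast that selected the transcripts, so their calls describe them and test nothing.

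Among well-measured transcripts under the same conditions the largest fall was in RNA815_21158.1. The other 7 of the 8 falls above 8-fold, of which RNA815_10265 was larger (log2 fold change -4.94), had a mean level under 3 log2 CPM. RNA815_10265 was named after its value was seen. RNA815_21158.1 had 13.3, 27.7 and 59.7 CPM (lowest, median, highest) in worms with company, against 348, 544 and 833 CPM in worms raised alone. The log2 fold change was -4.4 ± 0.24 (SE; limma adjusted p = 1.51e-11). The highest library with company, octet replicate 4, lay 5.83 times below the lowest library raised alone. RNA815_21158.2, of the same number, had 10.6, 26.5 and 44.2 CPM with company, against 127, 199 and 266 CPM in worms raised alone, a log2 fold change of -2.89 ± 0.21 (SE).

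Other large falls were smaller than these. RNA815_18366.1 had 10.7, 24.4 and 36.0 CPM with company, against 82.9, 129 and 216 CPM in worms raised alone, a log2 fold change of -2.57. RNA815_19279.2 had 7.48, 19.3 and 26.8 CPM with company, against 54.4, 81.1 and 146 CPM in worms raised alone, a log2 fold change of -2.36. In these 4 transcripts octet and paired libraries overlapped, with log2 differences of octet from paired worms of -0.24 to 0.21 and adjusted p of 0.685 to 0.832 (limma). The other 4 of the 8 lower transcripts were less abundant in reads and separated the sides by less. RNA815_11515, RNA815_32394, RNA815_1802.4 and RNA815_295 had log2 fold changes of -1.91, -1.89, -1.88 and -1.84, and their highest library with company lay 1.11 to 1.23 times below the lowest library raised alone.

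RNA815_32394 was the only 1 of these 8 lower transcripts with a called difference between octet and paired worms. Octet libraries held 3.27, 2.82, 2.43 and 2.42 CPM, paired libraries 5.98, 5.49, 7.65 and 8.09, joined libraries 9.50, 15.0, 10.3 and 16.1, and isolated libraries 19.7, 17.5, 26.6 and 19.9. No neighbouring groups overlapped in that order. The log2 difference of octet from paired worms was -1.27 (limma adjusted p = 0.0226). That of joined from isolated worms was -0.74, with an unadjusted limma p of 0.000356 and no call after adjustment.

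**Figure D2:**
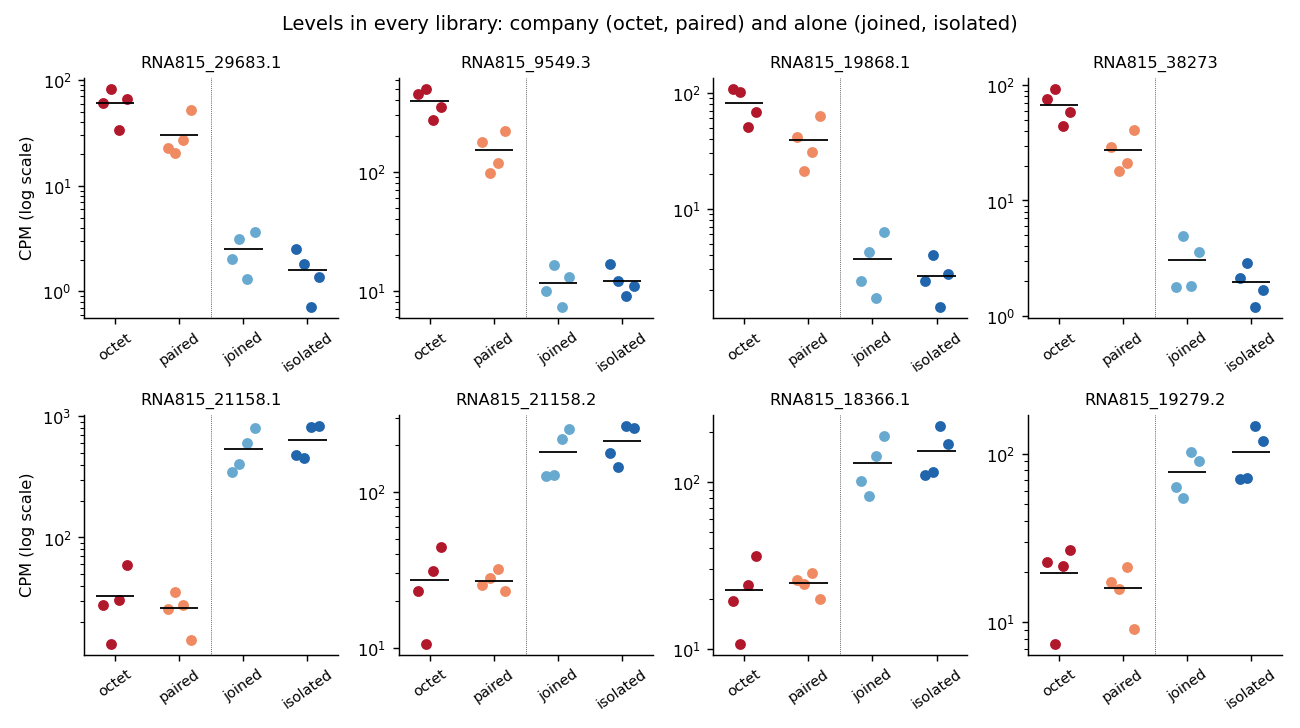
CPM on a log axis in every library (points) with group means (bars) for the 4 largest rises (upper row) and the 4 largest falls (lower row) named by the rule, groups in the order octet, paired, joined, isolated. In the rises the paired points lie mostly below the octet points, while in the falls, such as RNA815_21158.1 with 13.3 to 59.7 CPM with company and 348 to 833 CPM in worms raised alone, the octet and paired points overlap.

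The 86 transcripts raised more than 8-fold were grouped by a cutoff chosen after seeing the data. They carried 67 distinct numbers. Of the 86 transcripts 84 showed no overlap, against 10.9% of all calls and 3.38% of all tested transcripts. In all 4 single comparisons 82 were called, where 544 of the 12456 calls among 40265 tested transcripts were. Size was used to select them, so these and the following values describe them and test nothing. Together they took 4738 to 18951 CPM in libraries with company (median 11424) and 567 to 1328 CPM in libraries raised alone (median 982). By group the sum was 15222 ± 3642 CPM in octet libraries, 7968 ± 3168 in paired, 999 ± 324 in joined and 861 ± 246 in isolated libraries (SD, n = 4 each). Their log2 fold changes had a median of 4.09 for octet over isolated worms and of 2.94 for paired over joined worms. The paired worms showed a median of 0.76 of the octet worms' log2 rise over the worms raised alone. The smallest log2 fold change inside the threshold was 3.00, and 46 further transcripts rose between 4-fold and 8-fold.

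The 27 transcripts lowered more than 4-fold carried 25 distinct numbers, and 11 of them showed no overlap, against 10.9% of all calls and 3.38% of all tested transcripts. Their size was used to select them, so this is a description. Their summed level was 48.4 to 175 CPM in libraries with company (median 121) and 702 to 1546 CPM in libraries raised alone (median 1051). Their median log2 fold change was -3.08 for octet over isolated worms and -2.28 for paired over joined worms. RNA815_21158.1 alone accounted for 348 to 833 CPM in worms raised alone.

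**Figure D3:**
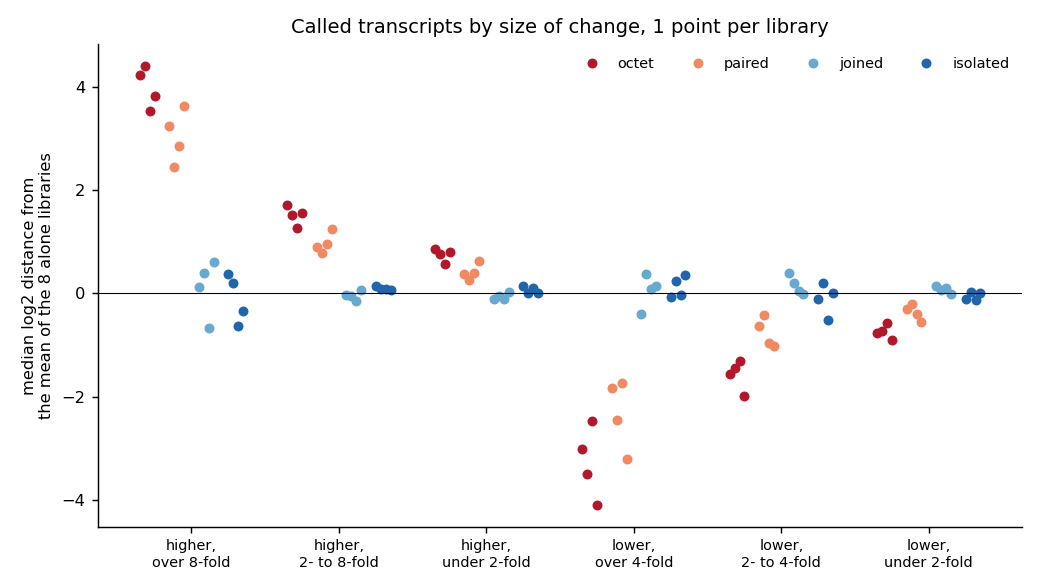
Median log2 distance of a set of called transcripts from the mean of the 8 libraries raised alone (vertical axis), 1 point per library, for 6 sets of called transcripts grouped by direction and size of change (horizontal axis). In the set above 8-fold the octet libraries lie at 3.54 to 4.4 and the paired libraries at 2.45 to 3.62, and joined and isolated libraries scatter around 0 from -0.68 to 0.60.

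Among the most abundant transcripts the changes were moderate. Of the 100 tested transcripts with the highest mean level 53 were called higher and 26 lower, where 16.7% and 14.3% of all tested transcripts were, and 44.8% of the most abundant group were called in either direction. The sides did not overlap in 10 higher and 5 lower ones of the 100, against 3.38% of all tested transcripts. RNA815_1555.1 had 3082, 3456 and 3911 CPM (lowest, median, highest) with company, against 2343, 2779 and 3034 CPM in worms raised alone. Its log2 fold change was 0.36 ± 0.08 (SE; limma adjusted p = 0.00124). RNA815_3906 had 2210, 2637 and 2860 CPM with company, against 1142, 1368 and 1681 CPM in worms raised alone, a log2 fold change of 0.90 ± 0.08 (SE). RNA815_7257.2 had 1727, 2718 and 4439 CPM with company, against 993, 1265 and 1670 CPM in worms raised alone, a log2 fold change of 1.12. These were the 3 most abundant transcripts that rose without overlap.

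The 3 most abundant that fell without overlap were RNA815_3639, RNA815_5698.2 and RNA815_12252.1. RNA815_3639 had 896, 1880 and 3173 CPM with company, against 3506, 3997 and 5612 CPM in worms raised alone, a log2 fold change of -1.26 ± 0.19 (SE). RNA815_5698.2 had 1384, 2213 and 2490 CPM with company, against 2610, 3076 and 3545 CPM in worms raised alone, a log2 fold change of -0.51. RNA815_12252.1 had 493, 711 and 965 CPM with company, against 1426, 1626 and 1973 CPM in worms raised alone, a log2 fold change of -1.19 ± 0.09 (SE) and the smallest limma adjusted p of the 6, 4.64e-09. In RNA815_3639 the libraries with company spread widely, with paired replicate 4 lowest and paired replicate 2 highest.

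RNA815_80.1 took the most reads of all transcripts over the 16 libraries together. It held 15.3% ± 3.85 of the reads in worms with company and 18.7% ± 3.10 in worms raised alone (SD, n = 8 each; exact permutation p = 0.0727, adjusted 0.109 over 3 library measures). Its log2 fold change of -0.24 (standard error 0.16, limma adjusted p = 0.244) was not called. It was called when paired replicate 4 and isolated replicate 3 were left out, at -0.39 (limma adjusted p = 0.0447).

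The 95% interval of the log2 fold change lay within 0.5 of 0 for 10462 transcripts (26.0%), whether or not it included 0. Of these, 344 were called all the same. The 3 most abundant were RNA815_169.1, RNA815_2025.1 and RNA815_8148.1. RNA815_169.1 had 4665, 4970 and 6235 CPM with company, against 3774, 4246 and 4849 CPM in worms raised alone, a called log2 fold change of 0.27 (limma adjusted p = 0.00754). RNA815_2025.1 had 2059, 2426 and 2700 CPM with company, against 2367, 2527 and 2792 CPM in worms raised alone, with a log2 fold change of -0.08 and an interval of -0.24 to 0.08. RNA815_8148.1 had 1615, 2426 and 2916 CPM with company, against 2251, 2559 and 3697 CPM in worms raised alone, with an interval of -0.48 to 0.05.

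The contrast can be split into comparisons of single groups whose means share no library. Their calls do not come from separate fits, because 1 model of all 16 libraries gave both comparisons their variance estimates and scaling. Dropping joined replicate 1, for example, left 8270 calls in octet against isolated worms. Octet against isolated worms gave 8640 calls (21.5%) and paired against joined worms 1843 (4.58%). Of these, 1627 were called in both and in the same direction, 1219 higher and 408 lower, and none in opposite directions. The shared calls were 18.8% of the octet calls and 88.3% of the paired calls. The count of 1627 varied with single libraries: it became 865 or 940 when joined replicate 1 or 3 was dropped and 990 or 979 when paired replicate 1 or 3 was dropped, and it reached 2120 when paired replicate 2 was dropped.

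Values in the second comparison followed the first in direction. The 5157 transcripts called higher in octet than in isolated worms had a median log2 fold change of 0.83 there, and of 0.48 in paired over joined worms, where 97.8% of them lay above 0. The 3483 called lower had medians of -0.90 and -0.44, and 96.7% of them lay below 0 in paired over joined worms. Among all tested transcripts 48.3% lay above 0 in paired over joined worms. Starting from the 1309 transcripts called higher in paired than in joined worms, the median was 0.79 there and 0.94 in octet over isolated worms. The 534 called lower had medians of -0.86 and -0.87. Across the 40265 transcripts the log2 fold changes of the 2 comparisons had a Pearson correlation of 0.73 and a Spearman correlation of 0.72. Transcripts are not independent replicates, and the libraries of each comparison share their reads among all of them.

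**Figure D4:**
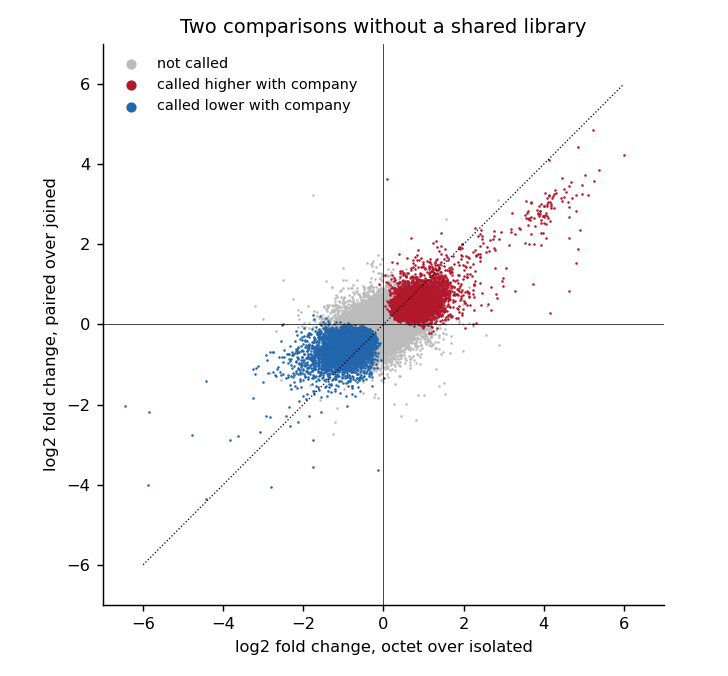
Log2 fold change of paired over joined worms (vertical axis) against octet over isolated worms (horizontal axis), which share no library, 1 point per tested transcript, coloured by the call in the company contrast; the dotted line marks equal values. The raised set at the upper right lies below the line, with a median of 4.09 for octet over isolated worms and 2.94 for paired over joined worms in the transcripts above 8-fold.

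The other split without shared libraries gave fewer shared calls, though they were a similar share of the paired calls. Octet against joined worms had 14037 calls (34.9%), and paired against isolated worms had 728 (1.81%). They shared 667 calls in the same direction and 1 in opposite directions, and the 667 made up 4.75% of the octet calls and 91.6% of the paired calls. The 7495 transcripts called higher in octet than in joined worms had a median log2 fold change of 0.83 there and of 0.27 in paired over isolated worms, with 83.9% above 0. The 6542 called lower had medians of -0.96 and -0.21, with 79.4% below 0. The correlation across transcripts was 0.52 (Pearson) and 0.48 (Spearman).

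Of the 12456 calls between the sides, 544 were called the same way in all 4 single comparisons, 423 of them higher and 121 lower. Another 1206 were called in 3 of them, 6050 in 2, 3447 in 1 and 1209 (9.71%) in none. By comparison, 10623 of the 12456 were called the same way in octet against joined and 8162 in octet against isolated worms. Only 1835 were so called in paired against joined and 721 in paired against isolated worms. The calls in single comparisons thus came mostly from those with octet worms. Without paired replicate 1 the 544 became 329. A further 3708 transcripts were called in some single comparison but not between the sides.

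Inside the side with company the octet worms lay farther from the worms raised alone than the paired worms did. The difference of octet from paired worms shares its libraries with the contrast but not its direction, because the contrast takes the mean of both groups. It had a median of 0.36 log2 units in the 6715 transcripts called higher with company, where 93.9% lay above 0. In the 5741 called lower it had a median of -0.40, and 9.67% lay above 0. Among all tested transcripts 50.2% lay above 0. The medians kept their direction without any 1 library, at 0.30 to 0.44 for the higher and -0.50 to -0.34 for the lower transcripts.

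Fewer transcripts differed between octet and paired worms 1 at a time. The test called 580 (1.44%), 416 higher and 164 lower in octet worms. Of the calls higher with company 386 were higher and 1 lower in octet than in paired worms, and of the calls lower with company 132 were lower and 0 higher. The remaining 61 lay outside the calls between the sides. The count of 580 also moved with the settings, to 28 at a threshold of 0.01, 2388 with the replicate number as a block and 5421 with a quality weight per library. It rested heavily on single libraries: dropping octet replicates 1, 2, 3 and 4 in turn gave 23, 256, 2425 and 51 calls, and dropping paired replicates 1, 2, 3 and 4 gave 40, 51, 235 and 3998. Dropping joined replicates 1 to 4 gave 303 to 433 calls, and dropping isolated replicates 1, 2 and 4 gave 270 to 348, but dropping isolated replicate 3 gave 1075. Joined and isolated libraries are not part of this difference, but they enter the filter, scaling and variance estimates that all comparisons share.

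The widest such differences among well-measured calls were taken by the same rule. RNA815_16439 had 40.2, 16.9, 21.4 and 48.3 CPM in octet libraries, 14.6, 6.30, 5.10 and 8.24 in paired libraries, 7.47, 4.58, 2.08 and 4.57 in joined libraries and 15.4, 4.65, 1.78 and 3.17 in isolated libraries. Octet worms exceeded paired worms by 1.86 log2 units (limma adjusted p = 0.0331), and the paired libraries overlapped both groups raised alone. RNA815_30887.2 had 44.5, 55.1, 55.6 and 73.9 CPM in octet libraries, 16.4, 12.5, 20.8 and 30.7 in paired libraries, 10.9, 9.05, 11.6 and 15.1 in joined libraries and 14.2, 11.6, 17.5 and 15.6 in isolated libraries. Its difference of octet from paired worms was 1.58 with a limma adjusted p of 0.00192, the smallest of all tested transcripts in that comparison.

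The 2 lower transcripts were chosen likewise. RNA815_6111 had 4.09, 4.66, 6.07 and 3.91 CPM in octet libraries, 19.5, 23.5, 11.5 and 10.6 in paired libraries, 29.4, 31.0, 35.8 and 41.5 in joined libraries and 16.9, 32.7, 9.99 and 27.9 in isolated libraries. The log2 difference of octet from paired worms was -1.74 (limma adjusted p = 0.0223). RNA815_256 had 3.62, 7.20, 7.52 and 1.75 CPM in octet libraries, 18.1, 20.6, 11.3 and 8.09 in paired libraries, 17.7, 22.7, 16.6 and 13.2 in joined libraries and 16.1, 19, 6.78 and 16.7 in isolated libraries, a difference of octet from paired worms of -1.66. In both transcripts the octet libraries lay below all paired libraries, and paired libraries overlapped isolated libraries.

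No transcript passed the test between joined and isolated worms: 0 of 40265 (0%) were called, the smallest limma adjusted p was 0.739, and 2371 transcripts (5.89%) had an unadjusted p under 0.05. No other setting that keeps these groups apart, limma-trend included, gave a call, and the fit with 2 sides only gives no value here. The transcripts called between the sides were nevertheless not centred on 0 in this difference. Over the 6715 transcripts called higher with company the median difference of joined from isolated worms was -0.13 log2 units, and 69.5% of them lay lower in joined worms. Over the 5741 called lower the median was 0.14, and 75% lay higher in joined worms. Among all tested transcripts 50.5% lay higher in joined worms. For these sets as a whole the worms given a partner for 24 h thus lay farther from the worms with lasting company than the isolated worms did.

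The shift was small beside the spread between pools, and whether it differs from none was not tested, since the transcripts share their 8 libraries. With the sets called anew without each library in turn the median of the higher calls was -0.16 to -0.10 and that of the lower calls 0.08 to 0.20. The smallest values, 0.08 and 0.09, came from leaving out isolated replicates 3 and 1.

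The 86 transcripts above 8-fold did not share the shift. By means of log2 CPM, 65 of the 86 lay higher in joined than in isolated worms, with a median difference of 0.24. This value moved with single libraries: leaving out isolated replicate 3 or joined replicate 4 gave 0.04 or 0.06, with 45 or 48 of 86 higher. Leaving out joined replicate 2 or isolated replicate 4 gave 0.13 or 0.14, and leaving out isolated replicate 2 gave 0.38. Leaving out joined replicate 3 gave 0.46, with 79 of 86 higher in joined worms. In octet over paired worms 85 of the 86 lay above 0, with a median of 1.01. Of all calls higher with company 93.9% lay above 0 there, and of all tested transcripts 50.2%. Called in that comparison were 37 of the 86, against 1.44% of all tested transcripts. The number of all such calls, 580, ranged from 23 to 3998 when single libraries were dropped.

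**Figure D5:**
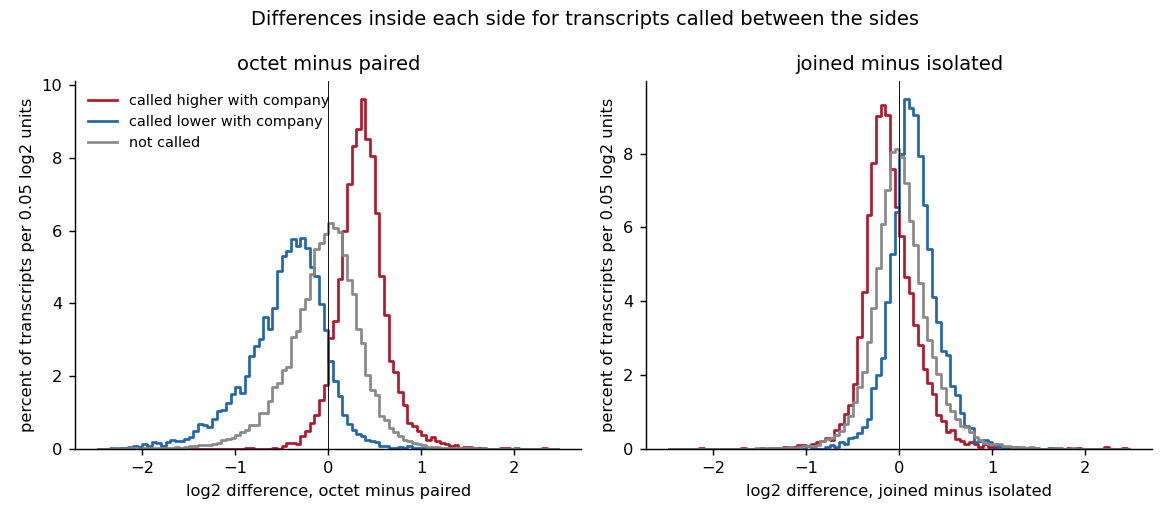
Distribution over transcripts (percent per 0.05 log2 units, vertical axes) of the log2 difference of octet from paired worms (left panel) and of joined from isolated worms (right panel), for transcripts called higher with company (red), called lower (blue) and not called (grey). The red and blue curves lie at medians of 0.36 and -0.40 on the left, and on the right they lie closer together and in the opposite order, at -0.13 and 0.14.

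Variants of the same number mostly moved together. Among 4230 numbers with more than 1 tested variant, 919 had at least 2 variants called. All called variants were higher with company in 568 of these numbers and lower in 324, and 27 (2.94%) held calls of both directions. Of the 9468 variants of such numbers 32.9% were called, close to the 30.3% of the other tested transcripts. Variants share reads in the assembly and in the counting and are not separate pieces of evidence.

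RNA815_7257 had the most variants called in 1 direction, with 8 of 8 tested higher with company by 0.87 to 1.4 log2 units. RNA815_7257.7 had 779, 1515 and 2248 CPM (lowest, median, highest) with company, against 496, 802 and 1305 CPM in worms raised alone. RNA815_7257.5, with the largest log2 fold change of the 8 (1.4, standard error 0.23), had 17.3, 34.6 and 51.2 CPM with company, against 6.28, 12.3 and 20.3 CPM in worms raised alone. Octet worms were called above paired worms in RNA815_7257.2, RNA815_7257.3, RNA815_7257.7 and RNA815_7257.8, by 0.73 to 0.82 log2 units. In the 3 least abundant variants, RNA815_7257.4, RNA815_7257.5 and RNA815_7257.6, octet and paired libraries overlapped, with differences of 0.05 to 0.17.

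The next 2 numbers stood for falls. RNA815_2054 had 7 of 10 tested variants called lower, by -1.39 to -0.53 log2 units, and the other 3 lay at -0.63 to -0.38 without a call. Of these, RNA815_2054.8 (-0.63, limma adjusted p = 0.0518) was called under other settings, among them median-ratio and upper-quartile factors, unrounded values, the replicate block and quality weights. RNA815_2054.1, its most abundant variant in reads, had 22.3, 42.5 and 52.6 CPM with company, against 34.7, 69.2 and 90.7 CPM in worms raised alone, a log2 fold change of -0.84 (limma adjusted p = 0.00153). RNA815_5685 had 6 of 6 tested variants called lower, by -0.91 to -0.59. RNA815_5685.1 had 31.7, 48.4 and 64.3 CPM with company, against 49.0, 83.3 and 103 CPM in worms raised alone, a log2 fold change of -0.82 (limma adjusted p = 0.00036). The sides overlapped in every variant of both numbers. The calls of RNA815_2054.2, RNA815_2054.6 and RNA815_5685.5 were lost in 8, 12 and 11 of 29 other settings.

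RNA815_80 and RNA815_10311 held variants that moved in opposite directions. RNA815_80.1 was not called, RNA815_80.4 rose by 3.94 log2 units, and RNA815_80.3 fell. RNA815_80.3 had 5.66, 11.8 and 16.9 CPM with company, against 17.0, 24.5 and 37.5 CPM in worms raised alone, a log2 fold change of -1.11 (standard error 0.16). RNA815_80.2 was called higher by 1.65 (standard error 0.51, limma adjusted p = 0.0174), and its libraries were uneven. It reached 1001 CPM in paired replicate 3 and 665 in octet replicate 3, and 298 CPM in isolated replicate 4, while the median was 144 CPM with company and 49.8 CPM in worms raised alone. Summed over its variants RNA815_80 was not called, at -0.23 (limma adjusted p = 0.262), a sum dominated by RNA815_80.1.

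In RNA815_10311 3 variants rose and 1 fell. RNA815_10311.2 had 296, 423 and 503 CPM with company, against 86.5, 110 and 147 CPM in worms raised alone, a log2 fold change of 1.83 (standard error 0.09, limma adjusted p = 6.73e-12). RNA815_10311.1 had 13.0, 17.5 and 28.2 CPM with company, against 35.6, 44.5 and 59.2 CPM in worms raised alone, a log2 fold change of -1.31 (standard error 0.11, limma adjusted p = 2.61e-08). Neither transcript showed overlap. RNA815_10311.3 and RNA815_10311.4 rose by 0.69 and 0.90. The sum over the number rose by 1.37 log2 units (limma adjusted p = 6.53e-11). How reads were divided between such variants was not tested.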

How the data were processed

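Whole worms were pooled and their RNA isolated by TRIzol, per the labels' protocols, and read as single-end reads of 100 bp, per the series' design text. Per the submitters' processing notes, the tools were Bowtie 0.12.7 for alignment and RSEM 1.1.19 for quantification. The table deposited by the authors holds estimated counts per transcript with 1 decimal and a decimal comma, not scaled for depth. They were not whole numbers in 23.8% of cells. RSEM shares out ambiguous reads among similar transcripts by maximum likelihood.

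The 16 libraries were grouped by the labels alone. Counts were rounded, and 40265 of 76437 transcripts were kept that reached 1.26 CPM (10 reads in the library of median size) in at least 4 libraries and at least 15 reads in all. They held 98.8% to 99.2% of the reads of a library. TMM factors were computed with trims of 30% and 5%, and CPM refer to the scaled library. A unit check did not accept values with decimal commas as counts, so limma-voom (limma 3.58.1, R 4.3.3, pseudocount 0.5) was used and no negative binomial count test. A model of 4 group means was fitted to all 16 libraries (degrees of freedom: 12 residual, 10.3 prior). The contrast was the mean of octet and paired minus the mean of joined and isolated worms, so each group counts equally. Tests were two-sided, Benjamini-Hochberg adjusted over all tested transcripts, with a threshold of 0.05. The median 95% interval reached 0.36 log2 units to either side. Because of the pseudocount, log2 fold changes of scarce transcripts are understated. Library measures were tested by exact permutation. The scripts were tested on simulated data.

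Transcripts were named by a rule. It took the 8 largest changes each way with an adjusted p under 0.05, a mean level of 3 log2 CPM or more and no overlap of the sides; the 3 most abundant calls each way without overlap; the 2 widest differences each way between octet and paired worms among calls in both; transcripts with 0 reads on a side (none was found); the 3 numbers with most variants called 1 way and the 2 numbers with the widest gap between opposite calls; the 3 most abundant with an interval within 0.5 of 0; and the 2 smallest adjusted p each way. RNA815_80.1 was added outside it, and ties between numbers with 6 called variants were broken by median size. The contrast and these lists were chosen with earlier results of these data known. Alternatives were other scalings, filters, weights, rounding and thresholds, a fit with 2 sides only, the replicate number as a block, limma-trend, summed variants, dropping RNA815_80.1 and dropping each library. Dropping paired replicate 4 together with isolated replicate 3 was chosen after seeing the data, as were the counts above 8-fold and 4-fold and the medians of joined minus isolated worms in the called sets. In all 24 within-group pairs of libraries the chi-square per degree of freedom (2.99 to 24.3) exceeded sampling noise, so no library was counted as a copy. No sequences or gene names of the assembly were used here.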

Additional observations from a re-analysis of the deposited data

Results flagged for a closer look

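In each group of 4 libraries the highest or lowest value was flagged when its gap to the nearest other library exceeded Dixon's 95% critical value. Of 260 such groups, over the named transcripts and library measures, 13 were flagged, and chance flags about 1 in 20 groups. RNA815_80.2 stood at 1001 CPM in paired replicate 3, against 57.8 to 186 CPM in the other paired libraries, and at 298 CPM in isolated replicate 4, against 36.7 to 61.5 CPM in the other isolated libraries. Octet replicate 3 was lowest of the octet libraries in RNA815_5698.2 (1384 CPM, against 2357 to 2490 in the others), in RNA815_8148.1 (1708 CPM, against 2717 to 2874) and in RNA815_10311.2 (442 CPM, against 499 to 503). RNA815_169.1 had 3774 CPM in joined replicate 1, against 4089 to 4136 CPM in the other joined libraries, and 4849 CPM in isolated replicate 3, against 4355 to 4425 CPM in the other isolated libraries. RNA815_5685.3 had 5.84 CPM in paired replicate 4, against 3.55 to 3.92 CPM in the other paired libraries, and 9.44 CPM in isolated replicate 2, against 5.23 to 5.80 CPM in the other isolated libraries. RNA815_10311.4 had 3.21 CPM in isolated replicate 3, against 5.02 to 5.17 CPM in the others. Octet replicate 1 was the deepest library of its group, with 10112451 reads against 7717578 to 7871891. Joined replicate 4 had 64887 transcripts with a read, against 65557 to 65598 in the other joined libraries. Isolated replicate 3 scored -87.2 on the second principal component, against -8.74 to -2.40 in the other isolated libraries.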

How the results depend on the processing

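At a threshold of 0.01 the contrast called 6797 transcripts, 4231 higher and 2566 lower with company, and 590 calls were shared by the 2 comparisons without common libraries. With a quality weight per library 2814 calls were shared. Leaving out each library in turn gave 10471 to 13034 calls, 5537 to 7101 higher, 4453 to 6345 lower, 1363 to 2257 without overlap and 865 to 2120 shared. Without paired replicate 4 and isolated replicate 3 the sides did not overlap in 2347 transcripts, which fewer libraries allow by construction, and 49.97% of calls were higher. The cause of the other shifts was not tested. With the replicate number as a replicate block 2588 calls were shared, 14098 were made in all and 2388 between octet and paired worms. Libraries with the same number were not treated as pairs, because no label says what the number marks and the correlation of their deviations from the group means was over 0.1 in 10 of 24 pairs (range -0.13 to 0.39), not in all. This does not show that no pairing exists, and 7 of 16 libraries correlated best with their own number. Summing variants turned RNA815_80.4 and RNA815_80.2 to -0.23 and RNA815_10311.1 to 1.37, because the sum takes the sign of the more abundant variants. Over 60 named transcripts and 29 settings 1674 values kept direction and side of the threshold, 38 lost a call and 15 gained one. The fit with 2 sides only gave 10863 calls and no value for shared calls. With 4 pools a group and this depth, the median interval reached 0.36 log2 units to either side, so smaller changes were often not detectable.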
